A study of Homo sapiens with 6 samples.

Results

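PMAIP1 encodes NOXA, a small protein that promotes cell death at mitochondria, and it was examined here together with 9 named genes of the BCL2 family. PMAIP1 was chosen because its RNA was higher in FAC-treated cells in this same comparison, so its difference is given as a description, with no test. The other 9 genes (BBC3, BCL2L11, BID, BIK, BAX, BAK1, BCL2, BCL2L1 and MCL1) were taken by name for their place in the family. Earlier results of these data were known when they were chosen. Each of the 10 genes had 1 named probe, among 14884 genes with a named probe in all. A wider list of 24 family genes was read beside them, of which 21 had a named probe.

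The cells were ARPE-19, a long-established line derived from human retinal pigment epithelium, grown to confluence and kept for weeks at low serum so that they differentiate. All 6 cultures then spent 2 days in medium without serum. In 3 of them the medium held vehicle (untreated), and in the other 3 it held 250 µM FAC, a short name commonly used for ferric ammonium citrate, by which cells are loaded with iron. Each culture is a biological replicate, as the series describes it, and gave 1 array. Values are log2 intensities, so a difference of 1 is a doubling, and changes are FAC minus untreated with their standard error (SE).

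Proteins of the BCL2 family decide whether the outer mitochondrial membrane stays intact. BAX and BAK form pores in that membrane, BCL2, BCL-XL and MCL1 hold them in check, and the BH3-only proteins bind these guardians or activate the pore formers. NOXA binds MCL1 above all, while BIM and PUMA bind all the guardians. Many BH3-only genes are controlled through their RNA: PMAIP1 by stress factors such as ATF4, and BCL2L11, the gene of BIM, by FOXO factors when growth signals fall.

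The arrays resembled each other, with median log2 intensities between 6.03 and 6.09 and correlations between 0.991 and 0.995 over all probes. Of 19 markers of retinal pigment epithelium, 15 had a named probe. OTX2 (11.10 ± 0.10 untreated, SD, n = 3) and TYRP1 (10.07 ± 0.52) were bright, while the visual cycle gene RPE65 (5.67 ± 0.15) and the channel gene BEST1 (5.89 ± 0.02) were dim. The retinol dehydrogenase gene RDH10 fell, from 12.06, 11.75 and 11.88 untreated to 11.51, 11.53 and 11.48 with FAC (-0.39 ± 0.08, limma adjusted p = 0.0430, lost in 7 of 14 alternatives). The other 14 of these markers did not pass, where 3.73% of all genes were called. Untreated replicate 2 stood apart in the pigment genes TYR and TYRP1. TYR measured 6.88 on that array, against 7.97 and 7.86 on the other untreated arrays, and TYRP1 9.48, against 10.45 and 10.28. The pigment gene PMEL was not low there (7.17, against 7.13 and 6.90). Markers of endothelium, blood, neurons, glia and photoreceptors (9 measured of 16 listed, with neither listed marker of mural cells among them) had a mean level of 6.69 to 6.75 on the untreated and 6.69 to 6.76 on the FAC arrays. That mean covers a wide range. Untreated, the neuron genes SYT1 (9.43 ± 0.12, SD) and MAP2 (8.43 ± 0.16) and the blood gene CSF1R (8.45 ± 0.13) were bright. PECAM1 (4.99 ± 0.11) and LYZ (4.85 ± 0.06) were the dimmest of the 9. CSF1R fell (-0.37 ± 0.07, limma adjusted p = 0.0365, lost in 7 of 14 alternatives). The other 8 of these 9 markers did not pass, where 3.73% of all genes were called. The table has no detection calls, so a dim value cannot be told from background.

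The sequences just upstream of PMAIP1, BCL2L11 and BMF are shown because these were the BH3-only genes with higher RNA in FAC-treated cells. They are the 250 bases before the annotated start of each gene, from RefSeq (GRCh38.p14), at chr18:59899746-59899995 on the plus strand for PMAIP1, chr2:111120664-111120913 on the plus strand for BCL2L11 and chr15:40108880-40109129 on the minus strand for BMF. Each is written along the gene's strand. Capitals mark the half-site TGACG of ATF and CREB factors in PMAIP1 and BMF, and the FOXO core TGTTTAC in BCL2L11, on either strand.
PMAIP1: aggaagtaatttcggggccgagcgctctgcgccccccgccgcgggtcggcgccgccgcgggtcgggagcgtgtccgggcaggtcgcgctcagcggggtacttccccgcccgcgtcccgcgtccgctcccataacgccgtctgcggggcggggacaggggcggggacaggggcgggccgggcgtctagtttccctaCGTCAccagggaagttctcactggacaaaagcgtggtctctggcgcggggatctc
BCL2L11: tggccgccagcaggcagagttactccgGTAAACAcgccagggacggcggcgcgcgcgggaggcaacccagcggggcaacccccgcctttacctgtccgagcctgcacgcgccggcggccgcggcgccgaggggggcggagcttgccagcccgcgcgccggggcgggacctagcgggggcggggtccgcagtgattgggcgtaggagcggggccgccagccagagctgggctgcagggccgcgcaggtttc
BMF: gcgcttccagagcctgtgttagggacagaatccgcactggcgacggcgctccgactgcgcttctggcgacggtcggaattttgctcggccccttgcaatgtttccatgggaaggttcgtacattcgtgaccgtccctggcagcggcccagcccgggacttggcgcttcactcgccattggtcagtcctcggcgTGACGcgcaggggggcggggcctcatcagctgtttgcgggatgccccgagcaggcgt

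The half-site lay 55 to 51 bases before the start of PMAIP1 and 57 to 53 before that of BMF, and 21.5% of 27305 RefSeq promoter windows of this length hold one. The FOXO core lay 223 to 217 bases before the start of BCL2L11, where 3.05% of windows hold one, and PMAIP1 and BMF held none. The SP1 box GGGCGG occurred 4 times in PMAIP1, 3 times in BCL2L11 and 1 time in BMF, and in 42.0% of windows. The HIF core (ACGTG or GCGTG) occurred 2 times in PMAIP1, 2 times in BCL2L11 and 1 time in BMF, and in 42.9% of windows. In BCL2L11 1 of the 2 HIF cores overlapped the FOXO core, and in BMF the HIF core overlapped the ATF and CREB half-site. The E2F core (TTGGCGC or TTCGCGC) occurred in BMF alone of the 3, and in 4.25% of windows. The MYC E-box CACGTG (6.45% of windows) occurred in none of the 3 windows. The window of BBC3, a BH3-only gene that did not pass, held 2 HIF cores, both within 1 MYC E-box, and none of the other motifs. G and C made up 72.8% of the PMAIP1, 76.8% of the BCL2L11 and 65.2% of the BMF window. All motifs were sought on both strands. The matches describe letters only, and no binding was measured.

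PMAIP1 was higher in every FAC culture than in any untreated one. It measured 7.51, 7.77 and 7.58 on untreated replicates 1, 2 and 3, and 8.37, 8.46 and 8.36 on the FAC arrays. Its mean went from 7.62 ± 0.14 to 8.40 ± 0.06 (SD, n = 3 per group), a difference of 0.78 ± 0.08 (SE), or 1.71-fold. By size of rise it stood at place 15 of 14884 genes, which is what it was chosen for. Untreated replicate 2 was the highest of the untreated arrays, and without it the difference was 0.85. RNA was measured in whole cultures, so more cells with PMAIP1 RNA and more PMAIP1 RNA per cell cannot be told apart, and NOXA protein was not measured.

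**Figure D1:**
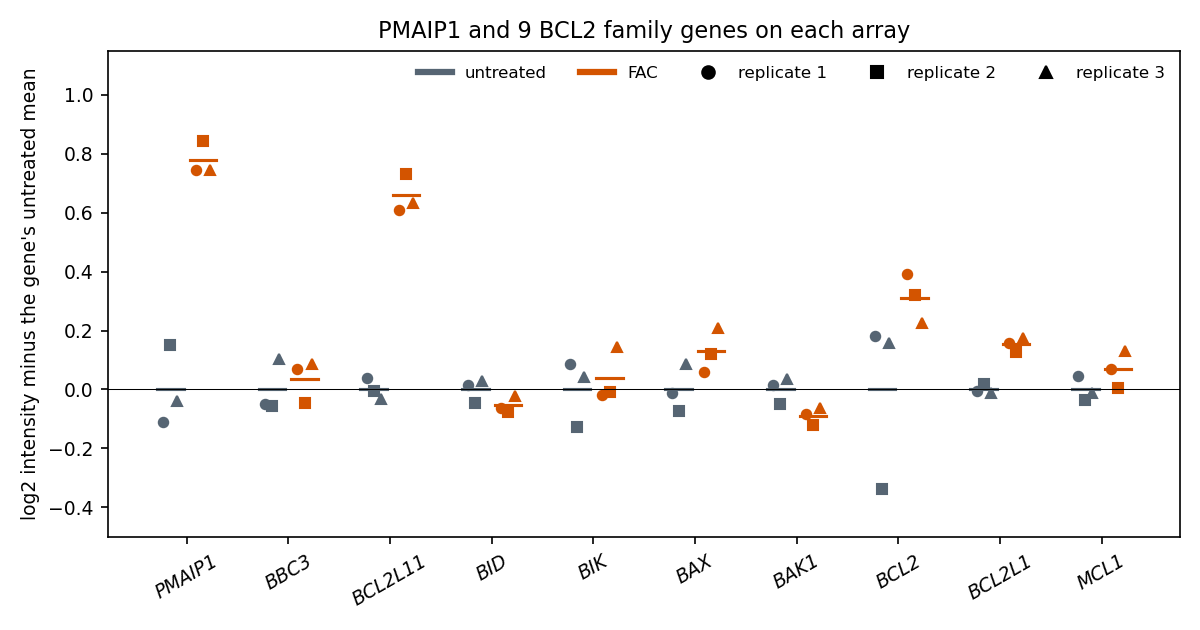
Log2 intensity of PMAIP1 and the 9 other named genes on each of 6 arrays, as the difference from the gene's mean over the 3 untreated arrays; symbols mark the replicate number, and short bars the group means. The 3 FAC values lie well above the 3 untreated ones for PMAIP1 and BCL2L11, while for BCL2 the group difference is stretched by a low value of 7.62 on untreated replicate 2.

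The other BH3-only gene with a large rise was BCL2L11, whose product BIM can bind every guardian of the family. It measured 7.82, 7.77 and 7.75 on the untreated and 8.39, 8.51 and 8.41 on the FAC arrays, with no overlap between the groups. BCL2L11 rose by 0.66 ± 0.06 (1.58-fold, limma adjusted p = 0.00181) and stood at place 30 of all genes by size of rise. It passed under each of 14 alternative settings, with changes between 0.62 and 0.68 and adjusted p between 6.83e-05 and 0.0198. Without untreated replicate 2 its rise was 0.66.

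BMF, whose product is a BH3-only sensor tied to the cytoskeleton, rose by 0.34 ± 0.07 (1.27-fold, limma adjusted p = 0.0488). It measured 7.30, 7.09 and 7.29 on the untreated and 7.51, 7.54 and 7.65 on the FAC arrays, again without overlap. The call was marginal: it was lost in 11 of 14 alternatives, among them each that left out 1 array, and a second, dimmer BMF probe gave 0.01 ± 0.13. Without untreated replicate 2, the lowest array for BMF, the change was 0.28 (adjusted p = 0.0938), and averaged over both probes it was 0.18 (adjusted p = 0.341).

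The remaining BH3-only genes did not pass. BBC3, the gene of PUMA, measured 7.35, 7.34 and 7.50 untreated and 7.47, 7.35 and 7.48 with FAC. The groups overlapped, and the change was 0.04 (95% interval -0.12 to 0.19, limma adjusted p = 0.837). BID, which links death receptors to mitochondria once it is cleaved, changed by -0.05 (interval -0.17 to 0.07). BIK, which acts at the endoplasmic reticulum, changed by 0.04 (-0.14 to 0.22), and BAD, which is held inactive by survival kinases, by -0.02 (-0.14 to 0.10). These intervals leave out changes as large as those of PMAIP1 and BCL2L11, but a smaller change could lie within them. Of the 6 measured BH3-only genes other than PMAIP1, 2 thus rose and none fell; over all genes 1.88% were called higher and 1.85% lower, 3.73% in all. Their median change was 0.04, against -0.0041 over all genes.

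**Figure D2:**
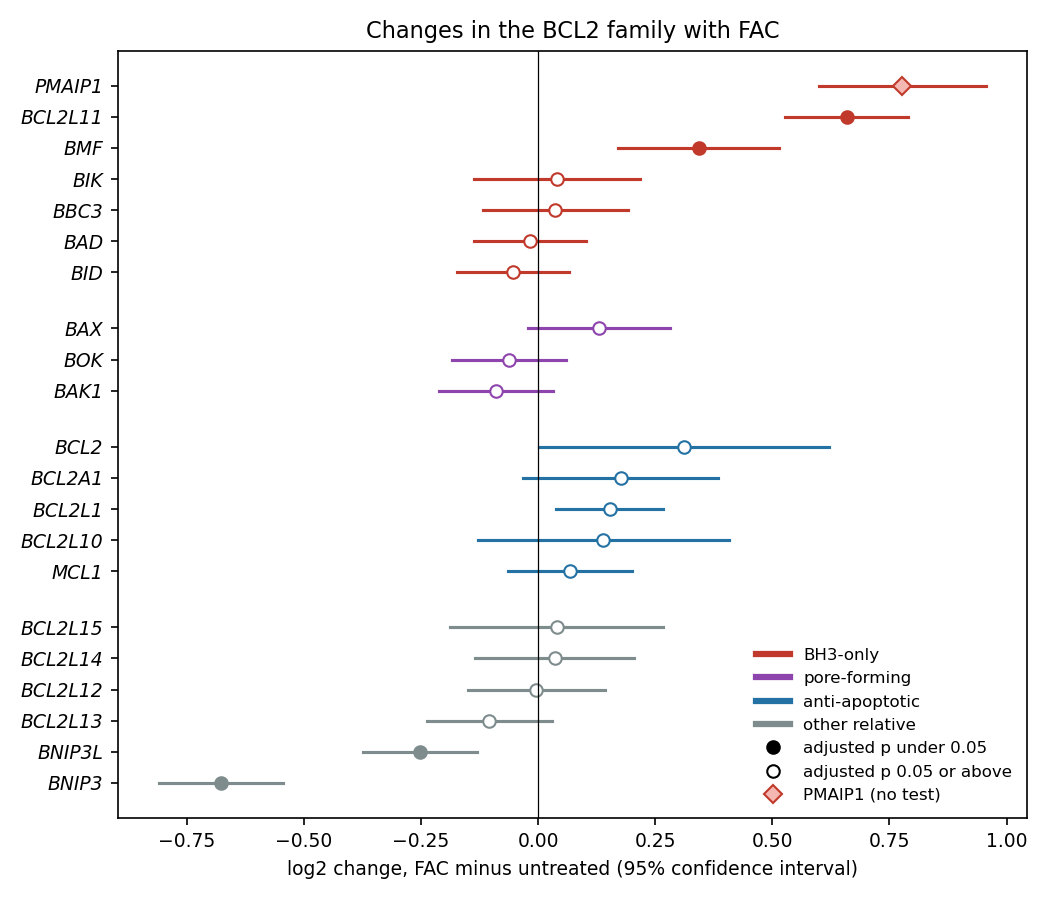
Log2 change, FAC minus untreated, for the 21 measured genes of the wider BCL2 family, with 95% confidence intervals from limma, grouped by role; filled circles have an adjusted p under 0.05, and the diamond is PMAIP1, shown without a test. PMAIP1, BCL2L11 and BMF lie highest, BNIP3 (-0.68) and BNIP3L (-0.25) lowest, and all pore-forming and anti-apoptotic genes carry open circles.

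None of the pore formers passed. BAX measured 8.70, 8.64 and 8.79 untreated and 8.77, 8.83 and 8.92 with FAC, groups that overlap, with a change of 0.13 ± 0.07 (limma adjusted p = 0.370). BAK1 measured 8.28, 8.22 and 8.31 untreated and 8.19, 8.15 and 8.21 with FAC. The BAK1 values did not overlap, though the change was only -0.09 ± 0.05 (limma adjusted p = 0.449). Over all genes, the groups did not overlap in 23.4%, in either direction. BOK, a relative found largely at the endoplasmic reticulum, changed by -0.06 ± 0.05, and its values did not overlap either. None of these 3 genes had an unadjusted p under 0.05 by limma, which 2560 of all 14884 genes had. None of the 14 alternatives called BAX, BAK1 or BOK.

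The guardians had positive estimates that did not pass the test. BCL2L1, the gene of BCL-XL, measured 11.00, 11.02 and 10.99 untreated and 11.16, 11.13 and 11.18 with FAC. The groups did not overlap, and the change was 0.15 ± 0.05 (1.11-fold, limma adjusted p = 0.161). It passed in 1 of 14 alternatives, a robust variance prior with an intensity trend, where the adjusted p was 0.0154.

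BCL2 itself measured 8.14, 7.62 and 8.12 untreated and 8.35, 8.28 and 8.19 with FAC. The BCL2 groups did not overlap, as in 23.4% of all genes, but the untreated arrays differed more among themselves than the groups did. The change was 0.31 ± 0.13 (limma adjusted p = 0.286), and 0.14 without untreated replicate 2. MCL1, the main partner of NOXA, measured 9.92, 9.84 and 9.86 untreated and 9.95, 9.88 and 10.01 with FAC. These MCL1 values overlapped, and the change was 0.07 (95% interval -0.06 to 0.20, limma adjusted p = 0.612). BCL2A1 (0.18 ± 0.09) and BCL2L10 (0.14 ± 0.12) did not pass either. Of the 5 measured guardians 0 were called by limma, and their median change was 0.15. By limma 2 of the 5 (BCL2 and BCL2L1) had an unadjusted p under 0.05, which 2560 of all 14884 genes had. BCL2L1 and BCL2L11 give several proteins by splicing, such as the long and short forms of BCL-X, and 1 value per gene does not separate them.

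Of the 9 named genes other than PMAIP1, BCL2L11 was thus the 1 that rose, and none fell. In the wider list without PMAIP1, 2 of 20 rose and 2 fell, where 1.88% of all genes were called higher and 1.85% lower. The genes that fell were both atypical relatives that serve mainly in the removal of mitochondria. BNIP3 measured 10.79, 10.73 and 10.80 untreated and 10.15, 10.03 and 10.11 with FAC, a fall of 0.68 on the log2 scale. BNIP3L, the gene of NIX, measured 12.23, 12.16 and 12.26 untreated and 11.95, 11.97 and 11.98 with FAC. It fell by 0.25 on the log2 scale (limma adjusted p = 0.0428), but was lost in 8 of 14 alternatives, among them every setting without 1 array. BCL2L12, BCL2L13, BCL2L14 and BCL2L15 changed by between -0.10 and 0.04 and did not pass. HRK, BCL2L2 and BECN1 had no named probe and were not analysed here.

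**Figure D3:**
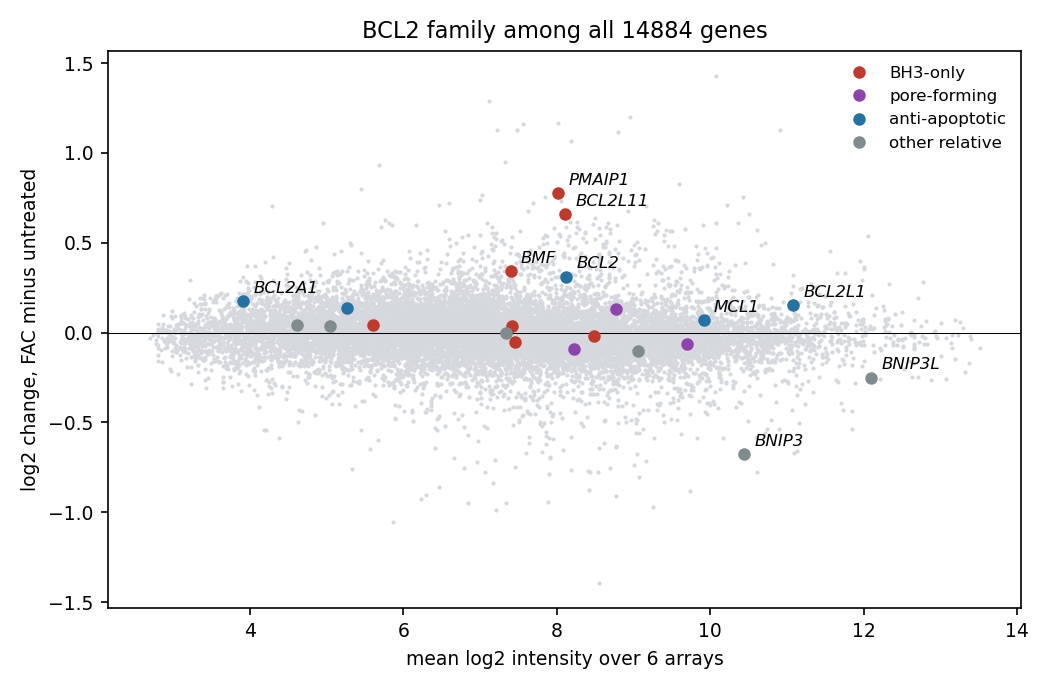
Mean log2 intensity over the 6 arrays (horizontal) against the log2 change, FAC minus untreated (vertical), for 14884 genes in grey and the 21 family genes in colour by role. PMAIP1 and BCL2L11 stand at the upper edge of the grey cloud and BNIP3 at its lower edge, while BCL2A1, with a mean of 3.83 untreated, is among the dim genes.

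Downstream of the pore, cytochrome c assembles APAF1 into the wheel that activates caspases. APAF1 fell, from 8.24, 8.18 and 8.19 untreated to 7.91, 7.89 and 7.84 with FAC (-0.33 ± 0.05, limma adjusted p = 0.0187). It was lost in 7 of 14 alternatives, with adjusted p up to 0.0847, among them each that left out 1 array other than untreated replicate 2. It was the 1 gene called among 11 measured of 24 listed for mitochondrial apoptosis, caspases and their inhibitors, where 3.73% of all genes were called. BIRC5, the gene of survivin, which rises in dividing cells, changed by 0.25 ± 0.06 (limma adjusted p = 0.0616). The pore gene VDAC1 (-0.16 ± 0.06) and the protease gene HTRA2 (-0.16 ± 0.06) did not pass. The list's median was -0.08. An unadjusted p under 0.05 by limma was found for 4 of its 11 measured genes, and for 2560 of all 14884 genes. The caspase genes and CYCS had no named probe and were not analysed here. Of 16 genes of the death receptor pathway only 5 were measured: FADD, TRADD, CFLAR, RIPK3 and MLKL. Limma called 0 of them, where 3.73% of all genes were called, and the changes lay between -0.10 and -0.07. A second, dimmer FADD probe went the other way (0.15 ± 0.07, against -0.09 for the probe used). By limma 0 had an unadjusted p under 0.05, which 2560 of all 14884 genes had.

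For the ATF4 and CHOP stress response, 15 of 22 listed genes were measured, with XBP1 and ERN1 of the wider unfolded protein response among them. None of the 15 rose and 2 fell (over all genes, 1.88% and 1.85%). CHAC1, PPP1R15A, CEBPB, CEBPG, NUPR1, SLC7A11 and HSPA5 had no named probe and were not analysed here. VLDLR (-0.44 ± 0.06, limma adjusted p = 0.0114), a lipoprotein receptor gene, fell from 10.14, 10.06 and 10.24 to 9.73, 9.73 and 9.66. XBP1, a factor of the unfolded protein response, fell too (-0.31 ± 0.06, limma adjusted p = 0.0343), with calls lost in 8 of 14 alternatives for XBP1, among them each that left out 1 array, and in 3 for VLDLR, among them that without FAC replicate 1. ATF4 (-0.03 ± 0.05), DDIT3, the gene of CHOP (0.16 ± 0.08), and ATF3 (0.28 ± 0.13), a stress factor that acts on PMAIP1, did not pass. TRIB3, a target of CHOP, changed by 0.04 ± 0.09 and ASNS, a target of ATF4, by -0.04 ± 0.06.

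Of 14 listed factors known to act on the PMAIP1 gene 11 were measured. HIF1A and TP63 were among those without a named probe and were not analysed here. Among the 11 measured, MYC fell and none rose, against 1.85% and 1.88% of all genes. MYC measured 9.64, 9.48 and 9.73 untreated and 9.19, 9.22 and 9.07 with FAC (-0.46 ± 0.08, limma adjusted p = 0.0221), a call lost in 7 of 14 alternatives, again among them each that left out 1 array other than untreated replicate 2. The interferon factor gene IRF1 measured 6.44, 6.37 and 6.72 untreated and 7.06, 6.88 and 6.80 with FAC. Its change of 0.40 ± 0.10 did not pass (limma adjusted p = 0.0874), though it did in 2 of 14 alternatives. E2F1, which drives entry into S phase, changed by 0.31 ± 0.10 (adjusted p = 0.168). FOXO1 (-0.15 ± 0.06) and FOXO3 (0.11 ± 0.08), whose products act on BCL2L11 as well, did not pass, nor did CREB1 (-0.22 ± 0.07). The activity of such factors is set largely in their proteins, which were not measured.

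Of 10 genes for the turnover of NOXA and MCL1 proteins 6 were measured. Limma called 0, where 3.73% of all genes were called. It gave 2 of the 6 an unadjusted p under 0.05, which 2560 of all 14884 genes had. The 2 were RNF7 (-0.23 ± 0.07, adjusted p = 0.131), a ligase subunit that works with CUL5 on NOXA, and BTRC (-0.16 ± 0.05, adjusted p = 0.164). RNF7 was called under the robust variance prior with an intensity trend. MARCHF5, a mitochondrial ligase of NOXA and MCL1, changed by -0.06 ± 0.06 and UCHL1, a deubiquitinase, by -0.0015 ± 0.06.

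**Figure D4:**
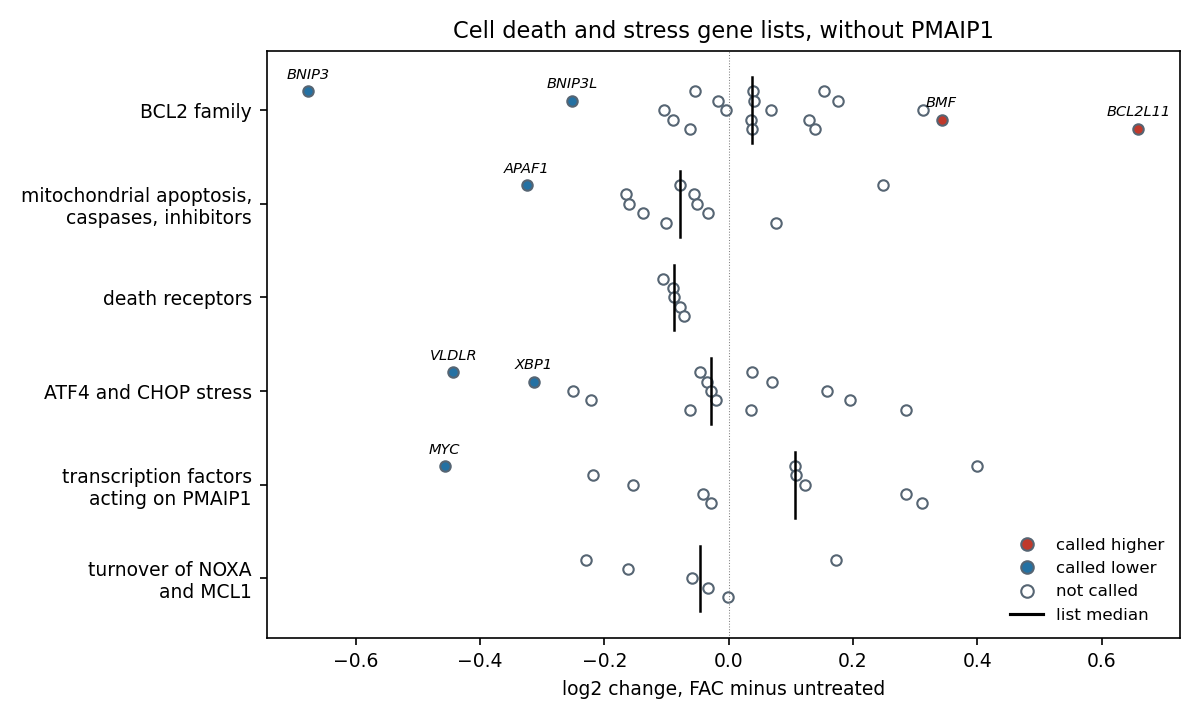
Log2 change, FAC minus untreated, of each measured gene in 6 lists, without PMAIP1; filled points are called by limma (adjusted p under 0.05), and vertical bars are list medians. BCL2L11 and BMF are the genes called higher, while APAF1, VLDLR, XBP1, MYC, BNIP3 and BNIP3L are called lower, and no death receptor or turnover gene is called.

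Genes with a pattern like that of PMAIP1 were sought over the 6 arrays by Pearson's r, among 128 genes of at least median level whose group means differ by at least 0.5. Since all of these genes differ between the groups, r is high for many of them and serves as a description only. The 6 highest were LRIG1 (0.997), a brake on growth factor receptors, the Wnt inhibitor gene APCDD1 (0.994), the matrix gene PRELP (0.994), the BMP family ligand gene GDF5 (0.992), TTC9 (0.992) and PLAAT4 (0.991). In all 6, as in PMAIP1, untreated replicate 2 was the highest untreated array. LRIG1, for instance, measured 9.23, 9.60 and 9.25 untreated and 10.74, 10.83 and 10.80 with FAC. With group means removed, the r with PMAIP1 was 0.944 for LRIG1 and between 0.782 and 0.878 for the other 5. The 6 were picked by r over the same arrays, which favours genes that follow PMAIP1 within the groups too. These values and the shared high array follow in part from that choice, and add no support for a link. BCL2L11 had an r of 0.973 (place 24), but 0.17 with group means removed, and BMF had 0.81 and -0.81. Neither BCL2L11 nor BMF was picked by r, so they cannot be set against the 6.

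Of the 3 nearest measured genes on either side of PMAIP1 on chromosome 18, in RefSeq order, the direct neighbour CCBE1 also rose. CCBE1 encodes a secreted protein needed for the growth of lymph vessels. It measured between 8.89 and 9.12 on the untreated and between 9.47 and 9.63 on the FAC arrays (0.55 ± 0.07, 1.47-fold, limma adjusted p = 0.00990). The call was lost in 1 of 14 alternatives, testing every probe (adjusted p = 0.0517). Beyond it on that side, the eye field gene RAX (-0.09 ± 0.10) and CPLX4 (0.19 ± 0.07) did not pass. On the other side MC4R (-0.03 ± 0.09), RNF152 (0.05 ± 0.11) and RELCH (-0.07 ± 0.05) did not pass either. Genes without a named probe can lie between these.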

How the data were processed

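Total RNA of 6 ARPE-19 cultures was amplified, labelled with biotin and hybridised to 1 array per culture (labels' protocols). The deposited table, made by the authors, gives log2 intensities for 53617 probes. The submitters' processing notes list Partek 6.6 and RMA and do not say what each did; the build is not given in the sources used here. The values run from 2.41 to 14.22, from which the log2 unit was taken. The platform annotation names 1 gene for 16098 probes and none for 37519. For the 779 genes with several probes the one with the highest mean was used.

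FAC and untreated arrays were compared by a moderated linear model (limma 3.58.1 under R 4.3.3, functions lmFit and eBayes, 2-sided), adjusted by Benjamini-Hochberg over 14884 genes, and a gene was called at an adjusted p under 0.05. Intervals are at 95%. One gene list is not reported here. The members, the gene lists and the tests were chosen with earlier results of these data known. Named genes are the 10 rule genes, all measured family genes, up to 4 called genes of each other list or else the 2 with the smallest p, the 6 most like PMAIP1 and 3 neighbours on each side; a few further list genes were named after their values were seen, for their known roles. In 10 simulated runs with 200 changed genes among 14884 for this comparison, 23.2% of changes of 0.3, 74.4% of 0.5 and 96.6% of 0.8 were recovered, and 5.47% of calls were false. Alternatives were the low-level filter, quantile normalization, median centring, a variance prior with intensity trend and robust estimation together, array weights, averaged probes, testing every probe, a replicate block, and leaving out each array. Deviations of arrays with the same replicate number correlated at -0.02, -0.03 and -0.15, so the numbers were not taken as pairs.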

Additional observations from a re-analysis of the deposited data

How the results depend on the processing

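The PMAIP1 difference lay between 0.72 and 0.85 without any 1 array, and was 0.79 with quantile normalization or array weights and 0.76 with median centring. BCL2L11 passed in all 14 alternatives. Of the 9 named genes other than PMAIP1, 1 was called, and 2, with BCL2L1, under the robust variance prior with an intensity trend. No called value changed sign. The 4 calls in the wider family without PMAIP1 became 2 (BCL2L11 and BNIP3) when every probe was tested, with the replicate block, and without any 1 array; with PMAIP1, which was chosen on this difference and adds no support, these counts are 5 and 3. Over all genes the count of 555 became 840 with the low-level filter, 1026 with the variance prior, 111 of the same genes' probes when every probe was tested, 184 with the replicate block, and 147 to 447 without 1 array. APAF1 and MYC, each the 1 call of its list, were lost when every probe was tested (0 called), with the replicate block (0 called) and without some arrays (0 to 1 called); the low-level filter and the variance prior gave 2 calls in each of these lists, adding BIRC5 and IRF1. The ATF4 and CHOP list, with 2 calls, had 0 when every probe was tested, 0 with the replicate block and 0 to 1 without 1 array. The turnover list had 1 call under the variance prior. The replicate block otherwise changed no call of the named genes examined under it except BMF, BNIP3L, VLDLR, XBP1, RDH10, CSF1R and BAG2, which it lost. Arrays of the same number showed no shared deviations over all genes, which cannot tell whether those cultures were handled together. In the simulated runs, with 3 arrays per group and 200 changed genes, changes of 0.3 were mostly missed. These data gave 555 calls, so the share missed here can differ.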

Other observations

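Proteins that bind BCL2 family members or hold back BAX were read as a further list of 17 genes, chosen after the other values had been seen; 13 were measured. BAG2, a co-chaperone gene of the BAG family, rose from 9.12 ± 0.11 to 9.45 ± 0.05 (0.33 ± 0.07, 1.26-fold, limma adjusted p = 0.0403), where 1.88% of all genes were called higher. Its call was lost in 8 of 14 alternatives, among them each that left out 1 array other than untreated replicate 1. BCAP31, whose product sits in the endoplasmic reticulum and is cut by caspases, had the next smallest p (-0.18 ± 0.05, adjusted p = 0.117). BAG1 (-0.04 ± 0.05), which binds BCL2, and the BAX inhibitor gene TMBIM6 (-0.03 ± 0.05) did not pass. No gene of this list fell, and its median change was -0.02.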
